A study of Mus musculus with 12 samples.

Results

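Autophagy and lysosome genes are described here as a set of 42 genes, taken by gene symbol from a table of 31057 genes and grouped by role. The roles are initiation and nucleation (10 genes), the conjugation machinery (9), the ATG8 family (5), receptors (5), lysosomal transcription factors (2), lysosomal enzymes (7) and lysosomal membrane proteins (4). All 42 were found in the table and all 42 had enough counts to be tested, as did 17201 genes in all. RNA was sequenced from 1 leg muscle, the tibialis anterior, of C57BL/6 mice aged 7 weeks, with 3 libraries in each of 4 groups. WT animals were H2A-Z.1 flox/flox and H2A-Z.2 flox/flox, with the Cre locus given as HSA Cre WT. Double-knockout animals (dKO) were H2A-Z.1-/- and H2A-Z.2-/- with HSA Cre+, in which the promoter of human skeletal actin drives the recombinase. This promoter is active in muscle fibres, so other cells of the muscle keep H2A.Z, a histone variant that replaces H2A in some nucleosomes. Denervated muscle was taken 48 h after the left sciatic nerve had been cut, and the same muscle of the other, unoperated leg was the control (innervated). Loss of the nerve, the surgery and the side of the body therefore cannot be told apart.

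Autophagy encloses cytoplasm, aggregates or organelles in a double membrane and delivers them to the lysosome for breakdown. The ULK1 complex starts the process, and the class III phosphatidylinositol 3-kinase around PIK3C3 and BECN1 marks the membrane where it forms. A pair of ubiquitin-like conjugation systems then attaches ATG8 proteins (the LC3 and GABARAP proteins) to the growing membrane. Receptors such as SQSTM1 hold cargo to the ATG8 proteins, and lysosomal hydrolases such as the cathepsins digest it. In skeletal muscle, autophagy and the proteasome are the main routes of protein breakdown during atrophy. FoxO factors are known to drive several autophagy genes there, and TFEB and TFE3 bind the CLEAR element of lysosomal promoters, whose core is CACGTG.

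The promoters of the members were read for that core, and what drives their changes after denervation was not tested. RefSeq windows from 250 bases before to 50 bases after a transcription start (GRCm38.p6) were found for 33 of the 42 members, 39 windows in all. The core CACGTG, which reads the same on both strands, occurred in 11 of 39 member windows (28.2%). It occurred in 9.39% of 13987 windows of tested genes and in 7.15% of all 32851 windows. The median GC content was 59.3% in member windows and 60% in windows of tested genes. Among members higher after denervation in WT, 8 of 20 windows (40.0%, of 18 genes) held it. Among the other members, 3 of 19 windows (15.8%, of 15 genes) did. In 35 of the 39 windows the start lay within 100 bases of a GENCODE transcript start, and 9 of these 35 (25.7%) held the core. The windows of Ctsl and Atg7, both with a match, were among the 4 beyond that distance. Both genes were higher after denervation in WT, so the contrast between the 40.0% and the 15.8% rests partly on them. That contrast was not tested. The forkhead-type sequence GTAAACA, searched on both strands (TGTTTAC on the other), was found in 0 of 39 member windows, against 2.6% of windows of tested genes. At that share, 39 windows are too few to show a lack of the sequence. Only this exact sequence was searched, and variants of it were not counted. The Gabarapl1 window, for example, holds ATAAACA, which differs in its first base. A match is a sequence description and shows no binding.

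The 250 bases before the start are shown for 5 members, with CACGTG in capitals. Gabarapl1 and Sqstm1 are the members with the largest rises whose window lies at a GENCODE start. Ctsd, Lamp1 and Mcoln1 are among the 5 members that hold the core more than once, and were picked after their values had been seen. The others are Atg3 and Ctsa, which are not printed. The coordinates are chr6:129532942-129533191 (plus strand) for Gabarapl1, chr11:50210821-50211070 (minus) for Sqstm1, chr7:142387828-142388077 (minus) for Ctsd, chr8:13158911-13159160 (plus) for Lamp1 and chr8:3500269-3500518 (plus) for Mcoln1.
Gabarapl1: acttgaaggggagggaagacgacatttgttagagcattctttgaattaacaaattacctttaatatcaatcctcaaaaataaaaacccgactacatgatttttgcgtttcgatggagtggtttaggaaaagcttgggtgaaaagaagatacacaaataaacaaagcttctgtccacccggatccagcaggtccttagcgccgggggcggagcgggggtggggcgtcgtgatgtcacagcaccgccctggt
Sqstm1: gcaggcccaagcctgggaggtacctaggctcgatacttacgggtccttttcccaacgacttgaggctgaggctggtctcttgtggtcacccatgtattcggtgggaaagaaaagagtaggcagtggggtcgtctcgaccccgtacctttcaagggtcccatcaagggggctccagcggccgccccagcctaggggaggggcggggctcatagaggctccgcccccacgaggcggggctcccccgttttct
Ctsd: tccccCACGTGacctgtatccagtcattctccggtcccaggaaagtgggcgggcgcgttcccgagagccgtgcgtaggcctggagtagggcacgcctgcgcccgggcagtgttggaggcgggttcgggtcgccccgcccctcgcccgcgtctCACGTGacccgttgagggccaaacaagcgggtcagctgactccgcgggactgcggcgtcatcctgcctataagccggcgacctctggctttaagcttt
Lamp1: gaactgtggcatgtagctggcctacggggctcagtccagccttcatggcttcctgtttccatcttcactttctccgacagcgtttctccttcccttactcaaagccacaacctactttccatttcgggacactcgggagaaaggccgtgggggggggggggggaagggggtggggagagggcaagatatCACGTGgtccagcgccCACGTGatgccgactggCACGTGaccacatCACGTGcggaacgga
Mcoln1: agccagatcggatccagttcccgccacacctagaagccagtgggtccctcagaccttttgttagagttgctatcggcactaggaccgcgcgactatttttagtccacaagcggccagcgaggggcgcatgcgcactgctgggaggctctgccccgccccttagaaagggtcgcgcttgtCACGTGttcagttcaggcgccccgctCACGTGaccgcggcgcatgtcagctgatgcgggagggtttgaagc
Members with more than 1 match included genes that rose, fell and did not pass. Lamp1 held 4 matches, starting 61, 45, 28 and 15 bases before the start, and Mcoln1 held 2, at 71 and 45 bases, and neither passed after denervation. Ctsd, with 2 at 245 and 98 bases, and Atg3, with 2 at 94 and 71 bases, rose in both genotypes. Ctsa, with 2 in 1 of its windows, fell in both. Gabarapl1 and Sqstm1, with larger rises than Ctsd, held 0 matches.

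The libraries held 55668606 to 87753152 counts each. In the dKO, H2afv (H2A-Z.2) stood at 25.6% of WT in innervated and 24.1% in denervated legs (edgeR adjusted p = 8.9e-06 and 5.24e-06), and H2afz (H2A-Z.1) at 62.2% and 67.6%, which did not pass (edgeR adjusted p = 0.175 and 0.287). A pair of libraries stood apart from their groups by GC content. Across genes, the deviation from the group mean correlated with GC content at −0.536 in WT denervated 2 and −0.398 in dKO innervated 1, against −0.206 to 0.356 in the other 10. The 10 muscle fibre markers summed to 263000 to 329000 CPM (counts scaled to library size by TMM) in WT innervated and 199000 to 205000 CPM in WT denervated legs. The sample is whole muscle, so fewer cells of a type and less RNA per cell cannot be told apart. The 42 members together took 0.323% to 0.395% of all counts in the innervated and 0.602% to 0.726% in the denervated libraries. That share was higher in every denervated library than in any innervated one, in both genotypes. It is a share of raw counts without TMM scaling, and the roles did not rise alike. In WT, receptors summed to a mean of 751 CPM in innervated and 2000 in denervated legs, and lysosomal enzymes to 1230 and 1990. Initiation and nucleation genes summed to 693 and 704 CPM, and the lysosomal transcription factors to 72 and 54.5. Abundant genes weigh most in these sums, such as Sqstm1 among receptors and Tfeb among the transcription factors, where Tfe3 rose. The near-equal sums of the initiation genes include 4 genes called higher and 1 called lower.

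After denervation in WT muscle, 23 of the 42 members rose and 4 fell (edgeR quasi-likelihood test, Benjamini-Hochberg adjusted p below 0.05 over all tested genes). That is 54.8% higher and 9.52% lower, where 44% of all tested genes were called, 23.1% higher and 21% lower. In dKO muscle 21 members rose and 3 fell (50% and 7.14%), where 42% of all genes were called, 21.9% higher and 20.2% lower. The median log2 change of the members was 0.28 in WT and 0.24 in dKO, beside −0.00274 and −0.0262 over all tested genes. By role, in WT, 5 of 5 ATG8 genes, 6 of 9 conjugation genes, 3 of 5 receptors, 4 of 10 initiation genes, 3 of 7 enzymes and 1 of 4 membrane genes rose. The same 5 members rose by 2-fold or more in both genotypes, Gabarapl1, Ctsl, Sqstm1, Nbr1 and Npc1. Groups of 3 libraries did not overlap for 29 members in WT, where 51.5% of all genes did not, and for 26 in dKO, where 52.6% did not.

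**Figure D1:**
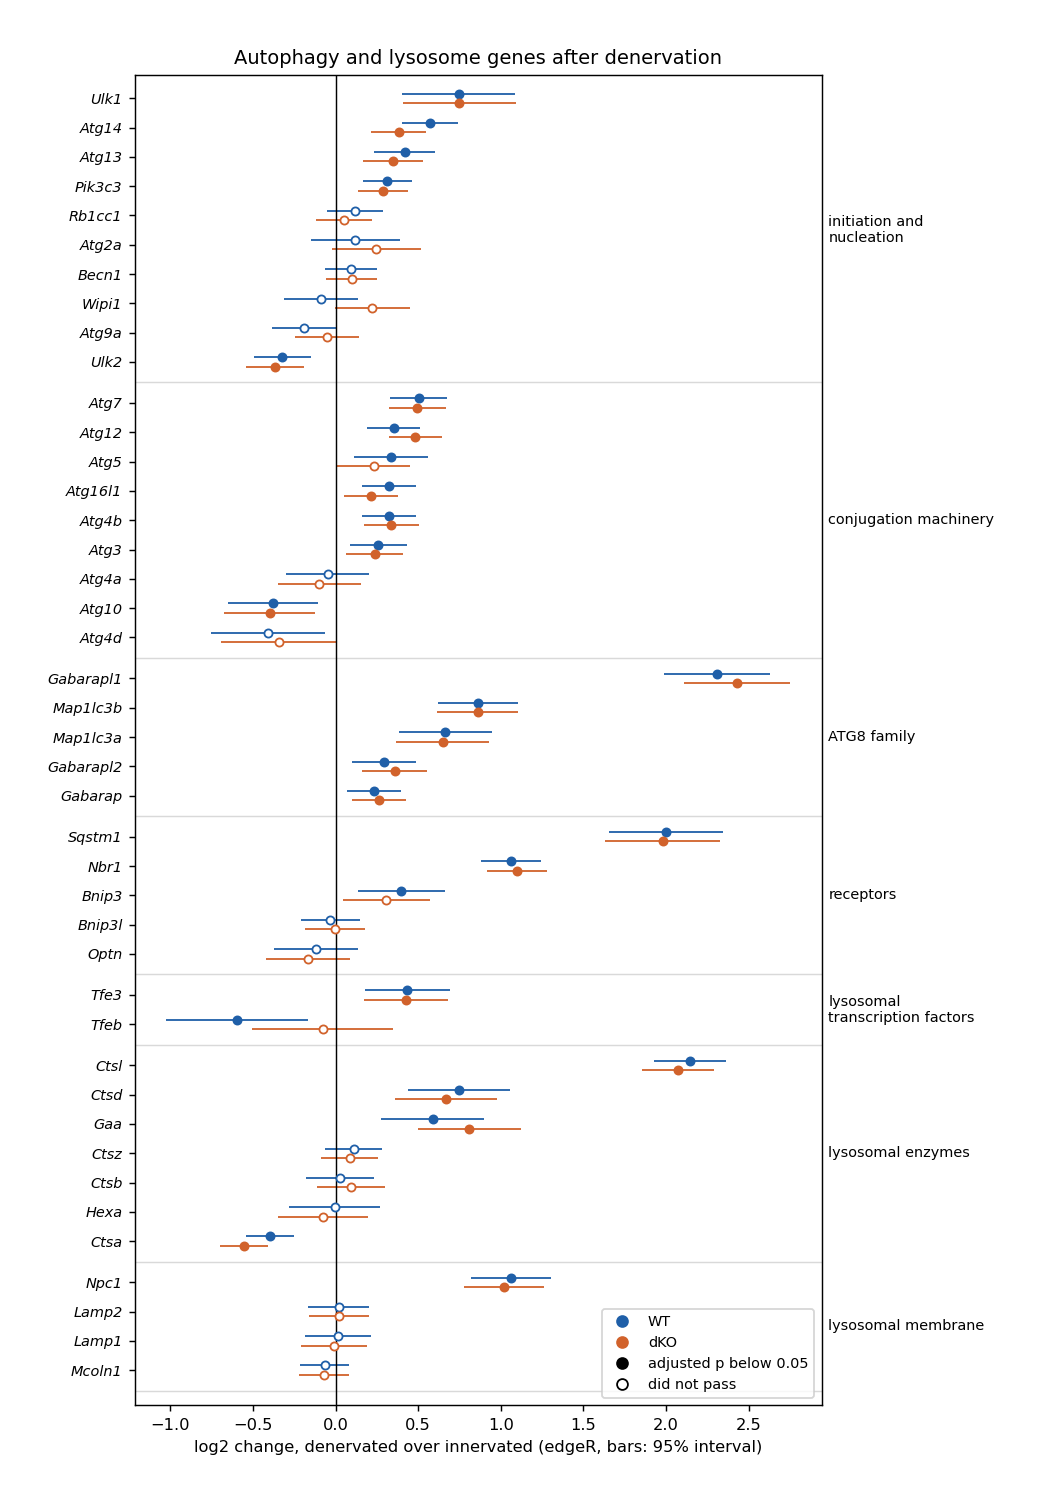
Log2 change after denervation (x axis, denervated over innervated, edgeR, bars for 95% intervals) of the 42 members (y axis, grouped by role) in WT and dKO, filled where the adjusted p was below 0.05. Gabarapl1, Ctsl and Sqstm1 lie at 2.00 to 2.31 in WT, and every ATG8 family member lies above 0 in both genotypes.

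The ATG8 family was the one role in which every member rose in both genotypes, and it rose unevenly. ATG8 proteins are the ubiquitin-like proteins that are attached to lipid on the autophagosome membrane. Gabarapl1 (ENSMUSG00000030161, chromosome 6, 129533160 to 129542346 on GRCm38, plus strand) stood at 30.2, 24.3 and 24.8 CPM in WT innervated and 146, 108 and 140 CPM in WT denervated libraries. In dKO it stood at 34.4, 29.7 and 26.0 CPM before and 158, 186 and 141 CPM after. The lowest denervated library was thus more than 3 times as high as the highest innervated one in both genotypes. Its log2 change was 2.31 in WT (SE 0.149, edgeR adjusted p = 1.18e-07) and 2.43 in the dKO (SE 0.150, edgeR adjusted p = 8.06e-08). Map1lc3b, an LC3 protein widely used as a marker of autophagosomes, stood at 79.6, 90.3 and 66.5 CPM in WT innervated and 139, 143 and 147 CPM in WT denervated libraries. In dKO it stood at 98.7, 92.4 and 78.5 CPM and at 157, 177 and 155 CPM. The groups did not overlap, and the log2 change was 0.86 in both genotypes (SE 0.113, edgeR adjusted p = 4.64e-05 in WT and 4.73e-05 in dKO).

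Map1lc3a, the other LC3 gene, stood at 145, 121 and 151 CPM in WT innervated and 243, 180 and 238 CPM in WT denervated libraries, and at 163, 211 and 183 and then 277, 316 and 280 CPM in dKO. Its log2 change was 0.66 in WT and 0.65 in dKO. Gabarap stood at 79.4, 75.8 and 67.0 CPM in WT innervated and at 87.4, 90.5 and 83.2 CPM in WT denervated libraries, a log2 change of 0.23 (edgeR adjusted p = 0.0221). Gabarapl2 stood at 43.5, 35.8 and 36.5 CPM and then at 51.4, 44.0 and 46.3 CPM, a change of 0.29 (edgeR adjusted p = 0.0182). Both also rose in dKO, by 0.26 and 0.36. The call of Gabarap in WT was lost without WT innervated 3 (edgeR adjusted p = 0.108), WT denervated 1 (0.0501) or WT denervated 2 (0.0600). It was also lost with no filter on low counts (0.0777), with only the groups compared (0.0573) and without WT denervated 2 and dKO innervated 1 together (0.0757). Its call in dKO was lost without dKO innervated 3 (0.0508). That of Gabarapl2 in WT was lost without WT innervated 2 (edgeR adjusted p = 0.0809), WT innervated 3 (0.0744) or WT denervated 1 (0.0727).

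Because Gabarapl1 rose more than its relatives, the makeup of the family changed. Per kb of the longest coding transcript, Gabarapl1 made up 5.86% ± 0.42 of the 5 ATG8 genes in WT innervated and 17.2% ± 0.996 in WT denervated muscle (SD, n = 3). In dKO the share went from 5.60% ± 0.956 to 17.4% ± 1.24. Map1lc3a was the most abundant member throughout on this scale, at 50.5% ± 4.38 and 47.3% ± 2.95 in WT. The share of Gabarap was 22.2% ± 1.93 and 15.6% ± 2.24. On the authors' deposited per-kb values the share of Gabarapl1 was 4.05% and 12.5%, so both scales gave a share about 3 times as large after denervation. Both rest on the same counts, so the second scale is not independent support. Map1lc3b, Gabarapl2, Bnip3, Bnip3l and Atg4a have near-identical copies elsewhere in the genome, and their counts are uncertain in that respect. Exons of 17 members overlap a gene on the other strand, Gabarapl1, Sqstm1, Ctsl, Npc1, Map1lc3b and Lamp1 among them, and those of Ctsl, Ctsd and Atg9a a gene on the same strand. The library kit marks strand, and the strand setting of the counting is not given in the sources used here.

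**Figure D2:**
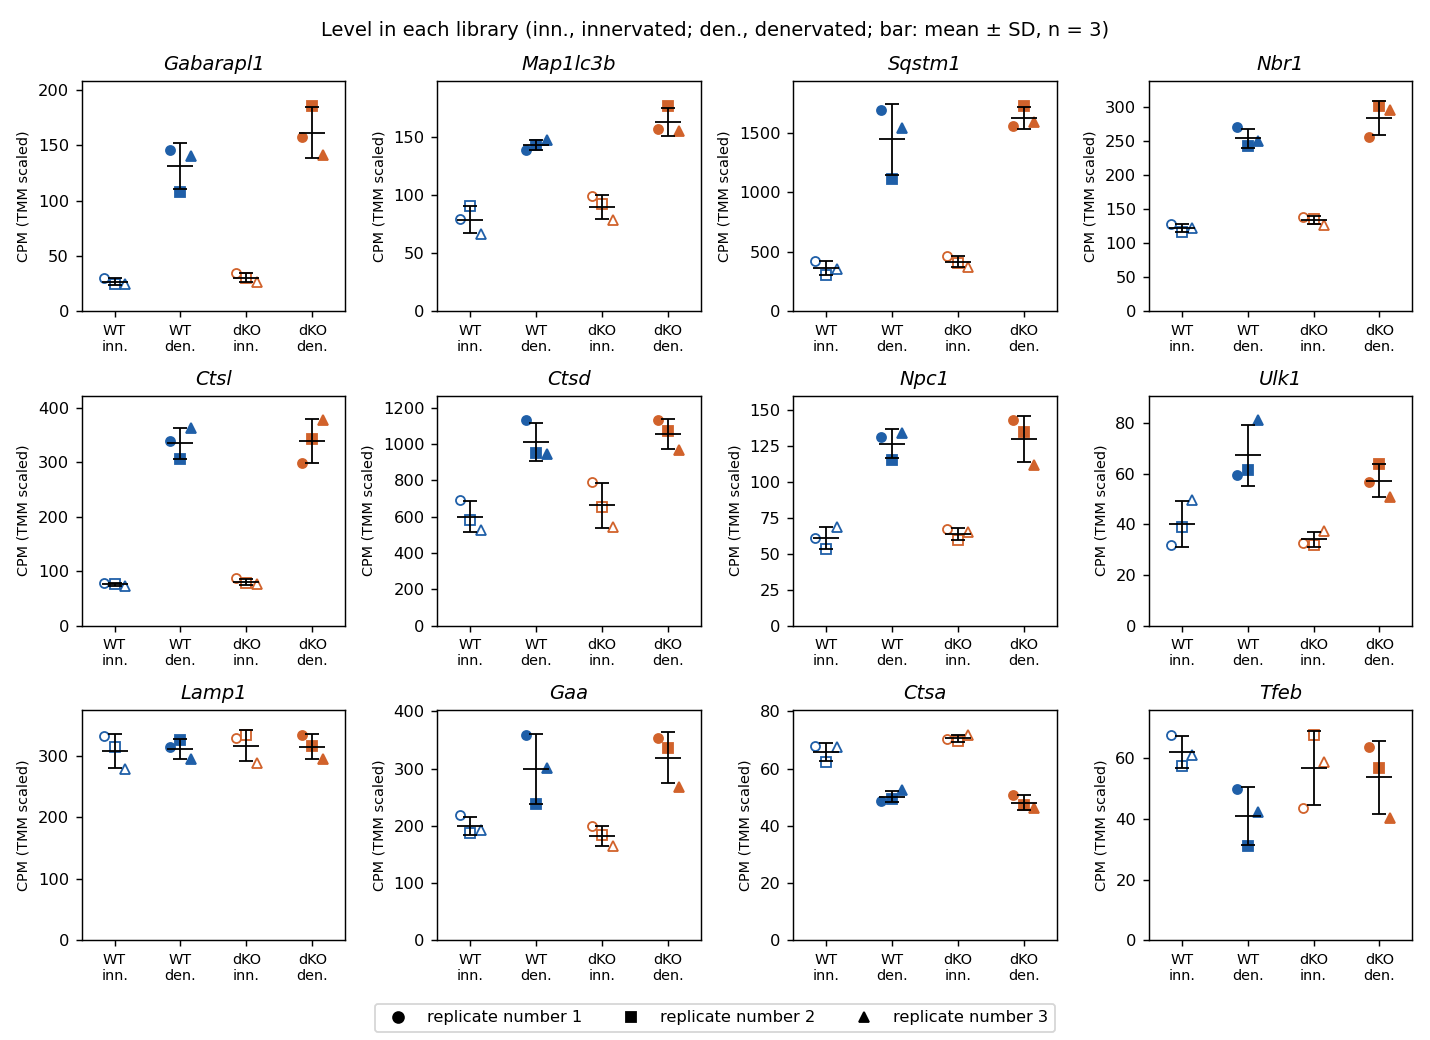
CPM (y axis, TMM scaled, from 0) of 12 members in each of the 12 libraries (x axis, 4 groups), with symbols for the replicate number and a bar for the mean ± SD (n = 3). Gabarapl1, Sqstm1, Ctsl, Nbr1 and Npc1 separate denervated from innervated libraries in both genotypes, Lamp1 overlaps between all groups, and Tfeb overlaps in dKO.

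Among receptors, Sqstm1 and Nbr1 rose in both genotypes, Bnip3 passed in WT, and Bnip3l and Optn passed in neither. Sqstm1 (ENSMUSG00000015837, chromosome 11, 50199366 to 50210827, minus strand) encodes p62, which links ubiquitinated cargo to ATG8 proteins. It stood at 422, 307 and 356 CPM in WT innervated and 1690, 1110 and 1540 CPM in WT denervated libraries. In dKO the values were 462, 407 and 370 CPM and then 1560, 1730 and 1590 CPM. Every denervated library lay above every innervated one, and WT denervated 2 was the lowest of the 6 denervated ones. The log2 change was 2.00 in WT (SE 0.161, edgeR adjusted p = 7.8e-07) and 1.98 in dKO (SE 0.161, edgeR adjusted p = 8.63e-07). Nbr1, a relative of p62 that also binds ubiquitin, stood at 128, 116 and 122 CPM in WT innervated and 270, 243 and 250 CPM in WT denervated libraries, and at 138, 135 and 127 and then 256, 302 and 295 CPM in dKO. Its log2 change was 1.06 and 1.10.

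Bnip3, a receptor on the outer mitochondrial membrane, stood at 151, 121 and 117 CPM in WT innervated and 174, 169 and 169 CPM in WT denervated libraries. In dKO it stood at 163, 155 and 125 and then 192, 198 and 159 CPM, so that the groups overlapped there. The rise of 0.40 in WT passed (edgeR adjusted p = 0.0178) and the value of 0.31 in dKO did not (edgeR adjusted p = 0.0593). With the replicate number as a block, Bnip3 passed in both genotypes (edgeR adjusted p = 0.00137 and 0.00687). Its WT call was lost without WT innervated 2 (edgeR adjusted p = 0.0695) or 3 (0.0769), and it passed in dKO without dKO innervated 1 (0.0378) or dKO denervated 3 (0.0188). Its relative Bnip3l stood at 46.9, 46.6 and 42.3 CPM in WT innervated and 42.2, 46.8 and 43.9 CPM in WT denervated libraries. Optn, a ubiquitin-binding receptor used in mitophagy, stood at 99.7, 90.7 and 88.4 CPM and then at 90.8, 90.8 and 75.8 CPM. Neither Bnip3l nor Optn passed in either genotype, and their groups overlapped. Sqstm1 made up 47.5% ± 2.43 of the 5 receptors per kb of longest coding transcript in WT innervated and 72.9% ± 4.32 in WT denervated muscle (SD, n = 3), and 48.5% ± 0.862 and 74.2% ± 1.04 in dKO.

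Lysosomal enzymes moved in both directions. Ctsl (ENSMUSG00000021477, chromosome 13, 64359337 to 64370890, minus strand), the cysteine protease cathepsin L, rose most, Ctsd and Gaa rose less, and Ctsa fell. Ctsl stood at 78.4, 76.0 and 73.0 CPM in WT innervated and 338, 305 and 362 CPM in WT denervated libraries, and at 86.5, 77.7 and 77.1 and then 298, 342 and 377 CPM in dKO. Innervated libraries of both genotypes lay within a narrow band, and all 6 denervated libraries were far above it. The log2 change was 2.15 in WT (SE 0.101, edgeR adjusted p = 8.86e-09) and 2.08 in dKO (SE 0.101, edgeR adjusted p = 1.16e-08). Ctsd, the aspartic protease cathepsin D, stood at 692, 583 and 524 CPM in WT innervated and 1130, 951 and 945 CPM in WT denervated libraries, and at 788, 654 and 543 and then 1130, 1070 and 965 CPM in dKO. Its log2 change was 0.75 and 0.67.

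Gaa, the acid alpha-glucosidase that breaks down glycogen in lysosomes, stood at 218, 188 and 192 CPM in WT innervated and 359, 238 and 301 CPM in WT denervated libraries. In dKO it stood at 199, 184 and 164 and then 354, 336 and 268 CPM. The groups did not overlap in either genotype, with log2 changes of 0.59 and 0.81 (edgeR adjusted p = 0.00507 in WT and 0.000587 in dKO). Ctsa, a carboxypeptidase that also protects lysosomal glycosidases, stood at 67.8, 62.3 and 67.7 CPM in WT innervated and 48.7, 49.4 and 52.4 CPM in WT denervated libraries, and at 70.5, 69.5 and 71.8 and then 50.9, 47.3 and 46.1 CPM in dKO. It fell by 0.40 and 0.55 (edgeR adjusted p = 0.000372 in WT and 2.41e-05 in dKO), again with no overlap. Ctsb, Ctsz and Hexa had log2 changes of 0.03, 0.11 and −0.01 in WT and 0.09, 0.09 and −0.08 in dKO, none of which passed.

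The cathepsins were therefore in different proportions after denervation. Ctsl was 8.42% of the 5 cathepsin genes in WT innervated and 22% in WT denervated muscle on the authors' deposited per-kb values, and 3.27% ± 0.234 and 8.93% ± 0.866 per kb of the longest coding transcript (SD, n = 3). The 2 scales use lengths of 1479 and 6168 bases for Ctsl, so both the level of the share and its rise in percentage points depend on the length chosen. Ctsd held the largest share on both scales, 64.0% and 63.7% on the first and 74.5% and 77.7% on the second.

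At the lysosomal membrane, Npc1 rose and the other 3 members did not pass. Npc1 (ENSMUSG00000024413, chromosome 18, 12189692 to 12236400, minus strand) exports cholesterol from the lysosome. It stood at 60.7, 53.2 and 68.4 CPM in WT innervated and 131, 115 and 134 CPM in WT denervated libraries, and at 67.1, 59.4 and 65.1 and then 143, 135 and 112 CPM in dKO. Its log2 change was 1.06 in WT (SE 0.112, edgeR adjusted p = 7.4e-06) and 1.02 in dKO. Lamp1, an abundant structural glycoprotein of the lysosomal membrane, stood at 332, 314 and 278 CPM in WT innervated and 314, 325 and 294 CPM in WT denervated libraries, and at 329, 333 and 288 and then 334, 316 and 294 CPM in dKO. The 4 groups overlapped, and the 95% interval of the log2 change in WT included 0. Lamp2 stood at 89.9, 92.1 and 86.3 CPM and then 83.3, 95.7 and 92.7 CPM in WT. Mcoln1, a calcium channel of the lysosome, stood at 19.8, 19.3 and 20.7 CPM and then 18.5, 19.2 and 19.5 CPM. Lamp2 and Mcoln1 overlapped between legs in dKO as well.

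Of the 10 initiation and nucleation genes, 4 rose and 1 fell in both genotypes, with a median log2 change of 0.12 in WT. Ulk1, the kinase that starts autophagy, stood at 31.7, 39.0 and 49.7 CPM in WT innervated and 59.4, 61.4 and 81.1 CPM in WT denervated libraries, and at 32.8, 31.9 and 37.3 and then 56.6, 64.0 and 50.9 CPM in dKO. It rose by 0.75 in both genotypes (edgeR adjusted p = 0.00188 and 0.00194). Its paralogue Ulk2 stood at 154, 134 and 148 CPM in WT innervated and 114, 125 and 110 CPM in WT denervated libraries, and at 160, 160 and 148 and then 126, 124 and 114 CPM in dKO. Ulk2 fell by 0.32 and 0.37, with no overlap between groups. The kinase pair thus moved in opposite directions in both genotypes. Atg14, the subunit that directs the PIK3C3 complex to autophagy, stood at 9.38, 9.81 and 8.88 CPM in WT innervated and 13.4, 13.5 and 14.8 CPM in WT denervated libraries, and at 10.4, 9.98 and 9.81 and then 13.1, 13.4 and 13 CPM in dKO. Its log2 change was 0.57 and 0.38 (edgeR adjusted p = 6.38e-05 in WT and 0.00149 in dKO).

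Atg13, a subunit of the ULK1 complex, stood at 17.0, 20.7 and 19.2 CPM in WT innervated and 24.7, 24.6 and 26.7 CPM in WT denervated libraries, and rose by 0.42 in WT and 0.35 in dKO. Pik3c3, the lipid kinase, rose by 0.31 and 0.29. Rb1cc1 (the FIP200 subunit), Becn1, Atg2a (a lipid transfer protein), Atg9a (a scramblase on membrane vesicles) and Wipi1 (a binder of the lipid that PIK3C3 makes) did not pass in either genotype. Their log2 changes ran from −0.19 to 0.12 in WT and from −0.05 to 0.25 in dKO. Wipi1 passed in dKO with the replicate block (edgeR adjusted p = 0.0254) and without dKO denervated 3 (0.36, edgeR adjusted p = 0.008). Atg2a passed in WT without WT denervated 2 and dKO innervated 1 together (0.25, edgeR adjusted p = 0.0283).

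Most of the conjugation machinery rose by small amounts. Atg7, the E1-like enzyme of both conjugation systems, stood at 10.8, 10.4 and 10.7 CPM in WT innervated and 15.5, 13.7 and 16 CPM in WT denervated libraries, and at 10.6, 10.3 and 10.9 and then 15.2, 14.7 and 14.9 CPM in dKO. It rose by 0.50 and 0.49. Atg12, the ubiquitin-like protein that is joined to ATG5, stood at 21.8, 20.3 and 22.4 CPM and then 28.2, 26.8 and 27.2 CPM in WT, and at 20.8, 20.5 and 19.2 and then 28.6, 29.7 and 26.3 CPM in dKO. It rose by 0.35 and 0.48. Neither gene overlapped between legs in either genotype.

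Atg5 stood at 16.2, 13.8 and 13.7 CPM in WT innervated and 21.2, 18.1 and 16 CPM in WT denervated libraries, where the groups overlapped, and at 16.5, 16.2 and 16.5 and then 19.3, 20 and 18.4 CPM in dKO. It passed in WT (0.34, edgeR adjusted p = 0.0172) and not in dKO (0.23, edgeR adjusted p = 0.0894), and passed in both with the replicate block (edgeR adjusted p = 0.00338 and 0.0237). Atg10, the E2-like enzyme for ATG12, stood at 7.62, 7.82 and 6.66 CPM and then 5.20, 6.45 and 5.36 CPM in WT, and fell by 0.38 in WT and 0.40 in dKO. Atg4b (0.32 and 0.34), a protease that processes ATG8 proteins, Atg16l1 (0.32 and 0.21), which holds the ATG12 to ATG5 conjugate, and Atg3 (0.26 and 0.24), the E2-like enzyme for ATG8 proteins, rose in both genotypes. The proteases Atg4a and Atg4d did not pass, at −0.05 and −0.41 in WT and −0.10 and −0.35 in dKO. Atg4d passed in both genotypes with the replicate block (edgeR adjusted p = 0.00809 and 0.0284), in WT without WT denervated 1 (0.0136) and in dKO without dKO innervated 1 (0.0204).

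Several of the small changes of this group depended on single libraries. In WT, leaving out WT innervated 2 ended the calls of Atg3, Atg5 and Atg10 (edgeR adjusted p = 0.0720, 0.0665 and 0.0915), and WT innervated 3 those of Atg3 and Atg5 (0.0689 and 0.0680). Leaving out WT denervated 1 ended the calls of Atg5 and Atg10 (edgeR adjusted p = 0.0786 and 0.0901), and WT innervated 1 or WT denervated 3 that of Atg10 (0.0779 and 0.0910). In dKO, the call of Atg3 was lost without dKO innervated 1, 2 or 3 or dKO denervated 1 (edgeR adjusted p from 0.0534 to 0.0726). The dKO call of Atg10 was lost without dKO innervated 2 or dKO denervated 1, 2 or 3 (edgeR adjusted p from 0.0532 to 0.117), and that of Atg16l1 without dKO innervated 2 or 3 or dKO denervated 2 or 3 (0.0525 to 0.132). Other settings ended calls as well. With no filter on low counts, Atg3 lost its call in WT (edgeR adjusted p = 0.0755), and Atg3 and Atg16l1 in dKO (0.106 and 0.117). With only the groups compared, Atg3 and Atg5 lost theirs in WT (edgeR adjusted p = 0.0513 and 0.0549). Without WT denervated 2 and dKO innervated 1 together, Atg3 did so too in WT (0.0595). Atg4b, Atg7 and Atg12 kept their calls in both genotypes under all 12 alternatives.

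The transcription factors of lysosomal genes went opposite ways in WT. Tfe3 stood at 9.58, 10.1 and 10.0 CPM in WT innervated and 13.3, 10.9 and 16 CPM in WT denervated libraries, and at 9.67, 9.70 and 10.2 and then 12.2, 13.9 and 13.6 CPM in dKO. It rose by 0.44 and 0.43. Tfeb stood at 67.7, 57.5 and 61.2 CPM in WT innervated and 50, 31.0 and 42.3 CPM in WT denervated libraries, and at 43.6, 67.8 and 58.9 and then 63.8, 57.0 and 40.5 CPM in dKO. It fell in WT (−0.60, SE 0.198, edgeR adjusted p = 0.0263) and had a value of −0.08 in dKO (edgeR adjusted p = 0.783), where the groups overlapped. The lowest Tfeb value of the WT denervated group (31.0 CPM) and that of the dKO innervated group (43.6 CPM) were in the libraries that stood apart by GC content. Without those 2 libraries Tfeb did not pass in WT (−0.43, edgeR adjusted p = 0.0573), and leaving out WT innervated 1, WT innervated 3, WT denervated 2 or WT denervated 3 alone also ended the call (edgeR adjusted p = 0.0834, 0.0534, 0.112 and 0.0618). In dKO, leaving out 1 library at a time gave values from −0.24 (without dKO innervated 1) to 0.11 (without dKO denervated 3), and none passed.

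**Figure D3:**
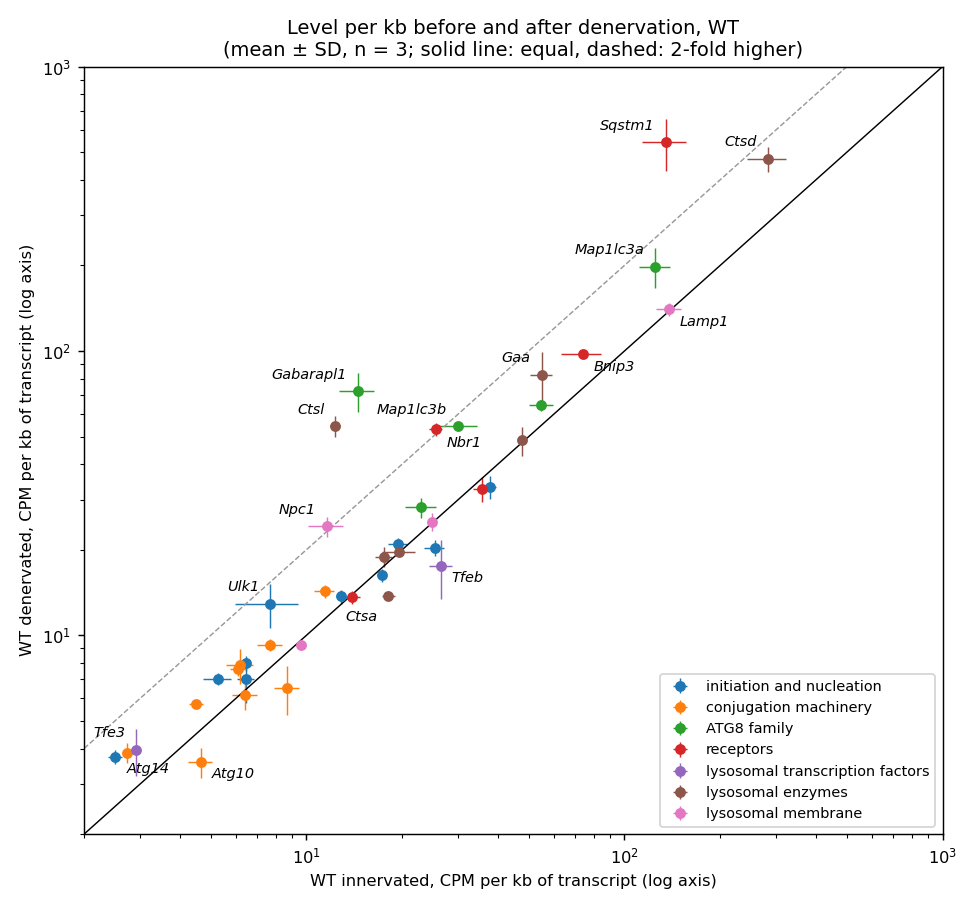
Level of the 42 members per kb of longest coding transcript in WT innervated (x axis) and WT denervated muscle (y axis), both in CPM per kb on log axes, with bars for the SD (n = 3) and colours for the role. Sqstm1, Gabarapl1 and Ctsl lie furthest above the dashed line of a 2-fold rise, and Lamp1 lies on the line of equal level.

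Ranked by level per kb of the longest coding transcript, Ctsd was the highest member in WT innervated muscle at 282 ± 40.1 CPM per kb (SD, n = 3). Lamp1 (138 ± 12.3), Sqstm1 (135 ± 21.6) and Map1lc3a (125 ± 14.3) followed, within 1 SD of each other, and then Bnip3 (73.8 ± 10.6). The lowest were Tfe3 (2.92 ± 0.0814), Atg7 (2.73 ± 0.0534) and Atg14 (2.51 ± 0.125). In WT denervated muscle Sqstm1 was the highest at 541 ± 113 and Ctsd stood at 474 ± 49.4, which overlap within 1 SD. Gabarapl1 went from place 22 to place 7 and Ctsl from place 25 to place 9. The authors' per-kb values use other lengths, shorter than the longest coding transcript by more than 2-fold for 16 of 42 members. On them Ctsd and Sqstm1 were also in the first 2 places in WT innervated muscle. Other places differed, with Bnip3 at 3, Gaa at 4, Lamp1 at 6, Ctsl at 15 and Gabarapl1 at 31. In WT denervated muscle Sqstm1 (106000 ± 23400) and Ctsd (46100 ± 5420) did not overlap within 1 SD on that scale.

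Other genes of the pathway, from lists outside the 42, were read in the same fit. The other autophagy machinery had 14 genes higher and 4 lower of 25 tested in WT (56.0% and 16%), and 13 and 4 in dKO (52.0% and 16%). Over all tested genes, 23.1% were higher and 21% lower in WT, and 21.9% and 20.2% in dKO, and the counts of the other lists stand beside the same shares. It was led by Tollip (1.06 in WT and 0.98 in dKO), a ubiquitin-binding adaptor, Epg5 (0.88 and 0.96), a tether of autophagosomes to lysosomes, Wipi2 (0.84 and 0.83), which recruits ATG16L1, and Atg101 (−0.83 and −0.85), a subunit of the ULK1 complex. Of 17 subunits of the proton pump that acidifies lysosomes, 6 rose and 1 fell in WT (35.3% and 5.88%) and 7 rose and 1 fell in dKO (41.2% and 5.88%). A few subunits carried the size of this change, Atp6v1a (1.83 and 1.87), Atp6ap2 (1.71 and 1.74) and Atp6v1h (1.62 and 1.59), followed by Atp6v1g1 (0.69 and 0.86). Atp6ap2 and Atp6v1g1 have near-identical copies elsewhere.

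Of 32 lysosomal hydrolases tested outside the 42, 4 were higher and 12 lower in WT (12.5% and 37.5%), and 5 and 13 in dKO (15.6% and 40.6%), with a median log2 change of −0.15 and −0.13. Galns (1.46 and 1.87), a sulfatase, and Lgmn (0.98 and 0.89), the asparaginyl protease legumain, rose. Manba (−1.18 and −1.11), a mannosidase, and Sgsh (−0.72 and −0.67), a sulfatase that degrades heparan sulfate, fell. Of 12 other lysosomal membrane genes, 6 rose and 1 fell in WT (50% and 8.33%) and 4 and 1 in dKO (33.3% and 8.33%). Those that rose included Cd63 (1.02 and 0.97), a tetraspanin, Tmem55b (0.64 and 0.50), which positions lysosomes, and Cln3 (0.47 and 0.41). Tmem192 rose in WT (0.35, edgeR adjusted p = 0.0187), a call lost under 4 of 12 alternatives, among them without WT innervated 3 or WT denervated 1 (edgeR adjusted p = 0.0910 and 0.0631).

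Of 22 upstream regulators, 9 were higher and 5 lower in WT (40.9% and 22.7%) and 9 and 4 in dKO (40.9% and 18.2%), so the share called lower was near that of all genes. Foxo1 (0.95 and 0.84) and Foxo3 (0.40 and 0.45), the factors known to drive autophagy genes in muscle, rose, and Foxo4 fell in WT (−0.30). Rragc (0.75 and 0.82), a GTPase that brings mTORC1 to the lysosome, rose. Trp53inp1 (1.19 and 0.64) rose and its relative Trp53inp2 (−1.04 and −1.08) fell, both encoding proteins that bind ATG8 proteins. Foxo3 and Foxo4 were named for their family after their values had been seen.

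**Figure D4:**
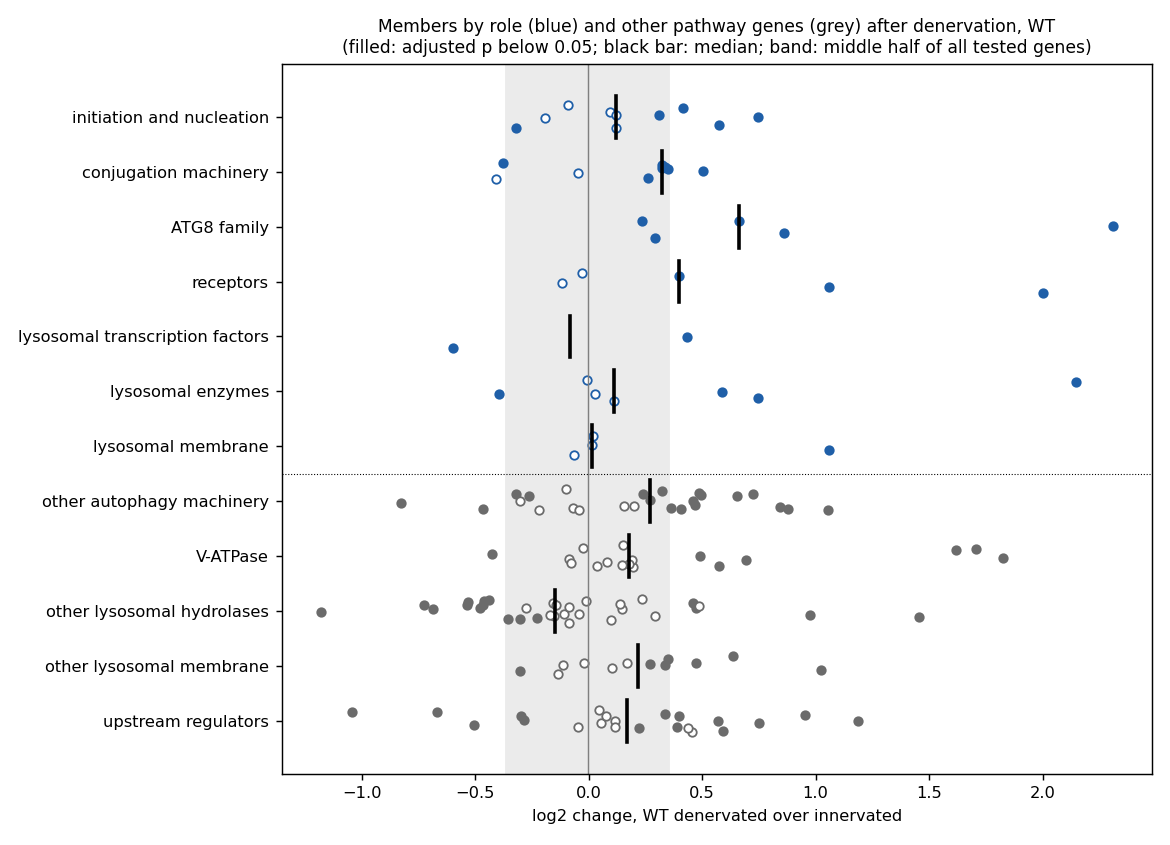
Log2 change after denervation in WT (x axis) of each member by role (blue) and of other pathway genes by list (grey), one point per gene, filled where the adjusted p was below 0.05, with a bar for the median of the list and a grey band for the interquartile range of all tested genes (−0.363 to 0.354). The ATG8 family lies to the right of 0 throughout, and the median of the other lysosomal hydrolases lies at −0.148.

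Markers of other cells that hold many lysosomes were read beside these changes. The 15 macrophage markers summed to 176 to 204 CPM in WT innervated and 194 to 227 CPM in WT denervated legs, and to 200 to 222 and 209 to 256 CPM in dKO. Of the 15, 3 rose and 1 fell in WT (Cd68, Tyrobp and Itgam, and Cd163), and 2 rose and 1 fell in dKO. Over all tested genes, 23.1% were higher and 21% lower in WT, and 21.9% and 20.2% in dKO. The counts of the other markers stand beside the same shares. Cd68, itself a lysosomal protein of macrophages, went from 3.12 ± 0.771 to 12.5 ± 1.18 CPM in WT (SD, n = 3). The other 11 did not pass in WT, and the median log2 change of the 15 was 0.20 in WT and 0.08 in dKO, with 11 of 15 above 0 in each. Neutrophil markers summed to 5.2 to 18.3 CPM in WT innervated and 24.3 to 30.5 CPM in WT denervated legs. Of the 8, 5 had enough counts to be tested, and S100a8 alone of these passed (6.95). Satellite cell markers summed to 57.9 to 60.6 and 146 to 207 CPM, mostly Sdc4, which went from 36.1 ± 1.15 to 162 ± 34.2 CPM (SD, n = 3). Of the 6, Sdc4 and Myf5 rose and Chodl fell in WT, 4 lay below 0, and the median log2 change was −0.13. T and B cell markers were near 0, at 0.106 to 0.494 CPM in all 12 libraries. Fibroblast markers summed to 5110 to 7660 CPM before and 2870 to 4980 CPM after in WT, endothelial markers to 470 to 527 and 345 to 427 CPM, Schwann cell markers to 53.2 to 57.7 and 21.3 to 24.5 CPM, and adipocyte markers to 5.6 to 8.29 and 4.23 to 12.4 CPM. The part of changing cell numbers in the results for the 42 genes was not tested.

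No member was called between genotypes. In innervated legs 0 of 42 members passed between dKO and WT (edgeR, and 0 by DESeq2), where 0.459% of all tested genes were called. An unadjusted p below 0.05 was reached by 3 members, and by 10.5% of all genes. In denervated legs 0 of 42 passed (edgeR, and 1 by DESeq2), where 0.36% of all genes were called. There, too, 3 members reached an unadjusted p below 0.05, and 9.78% of all genes did. The median difference over the 42 was 0.04 in innervated and 0.03 in denervated legs. Groups did not overlap for 6 members in innervated legs, where 17.1% of all genes did not, and for 9 in denervated legs, where 14% did not. Map1lc3a was higher in dKO by 0.42 in innervated (95% interval 0.135 to 0.701, edgeR adjusted p = 0.257) and 0.40 in denervated legs (0.119 to 0.684, edgeR adjusted p = 0.267). Its values of 163, 211 and 183 CPM in dKO innervated and 277, 316 and 280 CPM in dKO denervated libraries did not overlap with the WT libraries of the same leg, but this difference did not pass.

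Wipi1 had the lowest p in the denervated comparison and is named for that. It stood at 57.7, 52.9 and 52.6 CPM in WT denervated and 84.6, 74.4 and 61.2 CPM in dKO denervated libraries, and at 58.9, 56.1 and 58.6 and 68.6, 61.2 and 58.8 CPM in the innervated ones. The log2 difference in denervated legs was 0.43 (95% interval 0.207 to 0.657, unadjusted p = 0.00115, edgeR adjusted p = 0.112). It passed by DESeq2 (adjusted p = 0.0151), with no filter on low counts (edgeR adjusted p = 0.0233) and without dKO denervated 3 (edgeR adjusted p = 0.0359), and over all 12 alternatives the adjusted p ran from 0.0151 to 0.374. Pik3c3 was at −0.18 and −0.20 and Rb1cc1 at 0.19 and 0.12, and neither passed (edgeR adjusted p from 0.295 to 0.682). Outside the 42, Vamp8, a SNARE protein of autophagosome fusion (−0.44), and Aga, a lysosomal amidase (−0.63), were lower in dKO denervated legs, each just below the threshold (edgeR adjusted p = 0.0497) and each lost under 9 of 12 alternatives. A block for the replicate number ended the call of Aga (edgeR adjusted p = 0.0718). In this comparison that block put different animals, WT and dKO, under the same number, and these are not paired.

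**Figure D5:**
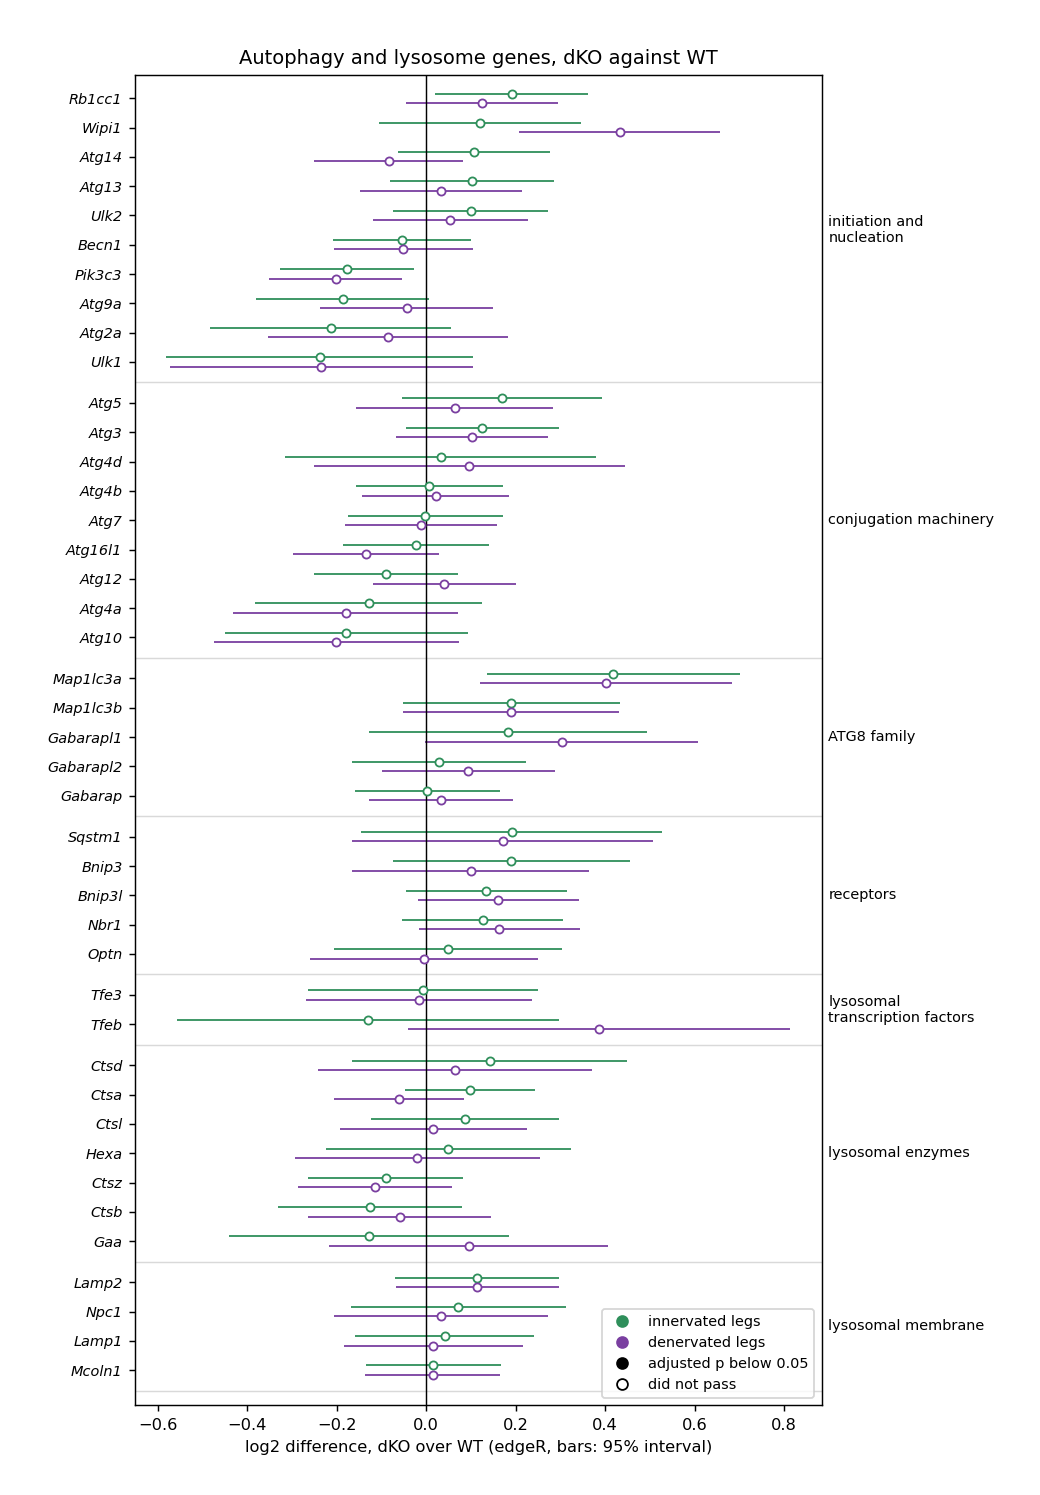
Log2 difference between dKO and WT (x axis, dKO over WT, edgeR, bars for 95% intervals) of the 42 members (y axis, grouped by role) in innervated and denervated legs. All points are open because none passed, and they lie between −0.24 and 0.43.

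The change after denervation did not differ detectably between genotypes for any member. In the test of the difference itself, 0 of 42 members passed (edgeR, with 0 at an unadjusted p below 0.05, and 0 by DESeq2), and 0 of 17201 genes passed in all, with 373 at an unadjusted p below 0.05. The intervals given here come from the fit without the replicate block, and none from the fit with it is given. They limit only what the fit without the block could show. The 95% interval of the difference lay within 0.5 on the log2 scale on either side of 0 for 35 of 42 members and within 0.75 for 41. The exception was Tfeb, with a difference of 0.52 (dKO change minus WT change, 95% interval −0.087 to 1.121, unadjusted p = 0.0871). Wipi1 had the lowest p (0.31, −0.005 to 0.631, unadjusted p = 0.0535). Side by side, the log2 changes of the 42 genes in WT and dKO, which share no library, had a Pearson correlation of 0.981 across genes, and genes are not independent replicates. The call was the same in both genotypes for 39 of 42 members in the fit reported. The other 3 were Bnip3, Atg5 and Tfeb, each called in WT alone there. Bnip3 and Atg5 also passed in dKO under 6 and 2 of the 12 alternatives.

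In the authors' deposited table, 27 members were called after denervation in WT, the same 27 as here. In dKO 25 were called there, of which 24 were called here, and the other was Bnip3. The log2 changes of the authors' deposited table differed from those here by at most 0.074 in WT and 0.059 in dKO.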

How the data were processed

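The 12 libraries (4 groups of 3) were made from tibialis anterior RNA with a strand-specific total RNA kit after removal of ribosomal RNA, per the labels' protocols. Raw counts of reads for each gene stand in the deposited table, and every test used these. Beside them, per the file headers, are normalized values and the same divided by gene length in kb, a signal for which the sources used here do not give the definition of length. The log2 fold changes and adjusted p-values in the table are the authors' own as deposited, with their sign turned here to denervated over innervated. TopHat2 2.0.14, Bowtie, HTSeq 0.6.1 and the build mm9 are listed in the submitters' processing notes.

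After TMM scaling, edgeR 4.0.16 (R 4.3.3, limma 3.58.1) fitted 4 group means with 8 residual degrees of freedom to the genes its filter by group kept. Contrasts were tested by quasi-likelihood with Benjamini-Hochberg adjustment over 17201 genes and a threshold of 0.05. Per library, 3 counts correspond to 0.0342 to 0.0539 CPM. Library pairs of a group differed by more than sampling noise. Replicates are biological per the series' design text. Alternatives were RLE scaling, DESeq2 1.42.0, no filter, only the groups compared, a replicate block, leaving out each library and, added after seeing the data, leaving out the 2 libraries that stood apart by GC content and using another length per gene. Same-numbered legs deviated together over 12705 genes (WT correlations of 0.28 to 0.483, dKO correlations of 0.21 to 0.535, and −0.411 to 0.0918 between other numbers), so the numbers pair the legs within a genotype. Block values are given where they change a call. For the denervation contrasts and the interaction, the block was genotype and number together. For the comparisons between genotypes it was the number alone, which groups different animals. In simulated counts for denervation in WT, edgeR recovered 39% of genes with a log2 change of 0.5 and 90% with a change of 1. The simulation changed 100 genes by each of these amounts, far fewer than were called here.

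The members, lists and tests were chosen with earlier results of these data known. Values per library are given for up to 4 called members per role with the largest change, or all members of small roles, and up to 4 called genes per pathway list are named. Map1lc3b2 was not found by symbol, and Glb1, whose symbol has 2 gene IDs, was left out. Positions, exon overlaps and lengths came from GENCODE M21 (build GRCm38, not mm9), near-identical copies from BLAST 2.17.0 at 98% identity over 50% of a transcript, and promoters from RefSeq tables, matched by symbol.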

Additional observations from a re-analysis of the deposited data

How the results depend on the processing

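The count of members called after denervation ran from 21 to 28 in WT (27 in the fit reported) and from 21 to 28 in dKO (24). With the replicate block it was 28 in each. Leaving out each library in turn gave 21 to 25 in both genotypes, and leaving out WT denervated 2 and dKO innervated 1 together gave 25 in WT and 26 in dKO. Under every one of the 12 alternatives 20 of the 27 WT calls and 20 of the 24 dKO calls remained, and 0 changed direction. The calls lost under at least 1 alternative were those of Atg3, Atg5, Atg10, Gabarap, Gabarapl2, Bnip3 and Tfeb in WT and Atg3, Atg10, Atg16l1 and Gabarap in dKO. The calls gained were those of Atg2a and Atg4d in WT and Wipi1, Atg4d, Atg5 and Bnip3 in dKO. With the replicate block, Atg4d in WT and Atg4d, Atg5, Bnip3 and Wipi1 in dKO (edgeR adjusted p = 0.0254) came past the threshold, and it ended 0 calls of members.

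Between genotypes, the count was 0 in innervated legs under all 12 alternatives. In denervated legs it was 0 in the fit reported and 1, Wipi1, by DESeq2 and with no filter on low counts, and 0 to 1 when a library was left out. The block for the replicate number, which here grouped different WT and dKO animals, left both at 0. The interaction count was 0 under all 17 alternatives, replicate block included. The cause of these differences was not tested. Levels compared between genes depend on the length used for each gene: the longest coding transcript was 0.984 to 6.61 times as long as the authors' length. In simulated counts, edgeR recovered 39% of genes with a log2 change of 0.5. Far fewer genes were changed in them than were called here, so that share need not hold for these data. Members with smaller changes did pass, such as Gabarap in WT (0.23, edgeR adjusted p = 0.0221).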
